A study of Homo sapiens with 4 samples.

Results

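The ligands of NKG2D, an activating receptor of cytotoxic lymphocytes, were followed in Caco-2 cells, a line from a human colorectal carcinoma that forms enterocyte-like layers in culture. Their 8 genes, MICA, MICB, ULBP1, ULBP2, ULBP3, RAET1E, RAET1G and RAET1L, were chosen by name as a known family, with earlier results of these data known, and all 8 were among the 37515 genes of the count table. RNA-seq was available for 4 libraries of wild-type cells in 2 groups. All cells had been grown for 15 days in transwells, and the unstimulated group held 2 libraries at 0 h. The other group held 2 libraries of cells that had received IFNγ at 60 ng/ml in the basal compartment for 3 h. The groups differ in both the cytokine and the elapsed time, and these cannot be told apart. The labels call the libraries duplicates but do not say that they were separate cultures, so p-values measure only the spread between these libraries, which may be technical. Caco-2 is a single transformed line and was grown without other cell types.

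NKG2D is carried by NK cells, CD8+ T cells and γδ T cells, intraepithelial lymphocytes of the gut among them, and it recognizes surface proteins that healthy epithelium shows at low levels. These proteins are distant relatives of MHC class I that present no peptide, and heat shock, DNA damage, infection and malignant transformation are known to induce them. In celiac disease, intraepithelial lymphocytes that carry NKG2D can kill enterocytes that display such ligands, and MICA is the member best known for this. MICA and MICB span the membrane, whereas most of the ULBP and RAET1 proteins are attached to it by a glycosylphosphatidylinositol (GPI) anchor.

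The libraries held 7171455 to 10365346 counts. At this depth 1 count corresponded to 0.0970 to 0.140 CPM (counts scaled to a common library size), and a count of 0 allows a level of up to 0.291 to 0.419 CPM, which covers counting error only. As a check of the labels, IFNγ-induced genes were examined, of which 5 of 10 tested members passed the low count filter only through the IFNγ group and so had to be higher there. The 5 that passed in both groups all rose, with a median log2 fold change of 2.51. All 12 enterocyte markers were tested, and 4 rose and 1, the brush border enzyme gene SI, fell (log2 fold change -1.13, adjusted p 0.0256 in edgeR), against 9.02% higher and 11.0% lower of all 14820 genes tested. Of 12 markers of lymphocytes and NK cells with a row, 3 were at 0 in every library, none exceeded 25 counts in a library, and PTPRC, which marks all leukocytes, had 0, 0, 2 and 0 counts. Their summed level was 7.09 and 8.52 CPM in the unstimulated libraries and 6.11 and 5.71 CPM in the IFNγ libraries. None of 3 lymphocyte, 4 myeloid and 3 stromal or endothelial markers tested was called by edgeR or DESeq2, with 2, 1 and 0 of them at an unadjusted p under 0.05 in edgeR. Not all of these were near 0. The stromal marker COL1A1 had 179 and 89.1 CPM in the unstimulated libraries and 167 and 118 CPM in the IFNγ libraries, whereas COL1A2 had at most 1 count in a library. Across 14518 genes the log2 fold change correlated with GC content (Spearman rho 0.431, a description, since the genes share the same 4 libraries). The part of the enterocyte markers in the ligand results was not tested.

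Of the 8 ligand genes, MICB was lower after 3 h of IFNγ, by 0.75 on the log2 scale, and none of the others passed the test. MICA, the most abundant member, was slightly lower in both IFNγ libraries, ULBP2 overlapped between the groups, and ULBP3 was higher in both IFNγ libraries at a low level. ULBP1, RAET1E, RAET1G and RAET1L had at most 4 counts in a library. Among the 4 genes that passed the low count filter, 1 was called, against 20.0% of all 14820 genes tested (11.0% lower and 9.02% higher) at a Benjamini-Hochberg adjusted p under 0.05 in edgeR's quasi-likelihood test. A single gene of 4 does not set the ligands apart from this background. With a log2 fold change above 1 in size as a further criterion 0 of the 4 were called in edgeR. The share of all genes tested was 7.28% (2.88% higher and 4.40% lower). In edgeR 2 of the 4, MICB and ULBP3, had an unadjusted p under 0.05, against 35.4% of all genes tested. Of these, ULBP3 passed the low count filter only through the IFNγ group, which favored a higher value there. DESeq2 called 0 of the 4. Over all genes 1337 were called higher and 1626 lower, and 1314 and 1001 with the GC and length trend removed. The median log2 fold change of the 3 that passed the filter through both groups was -0.16, beside -0.01 for all genes tested.

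**Figure D1:**
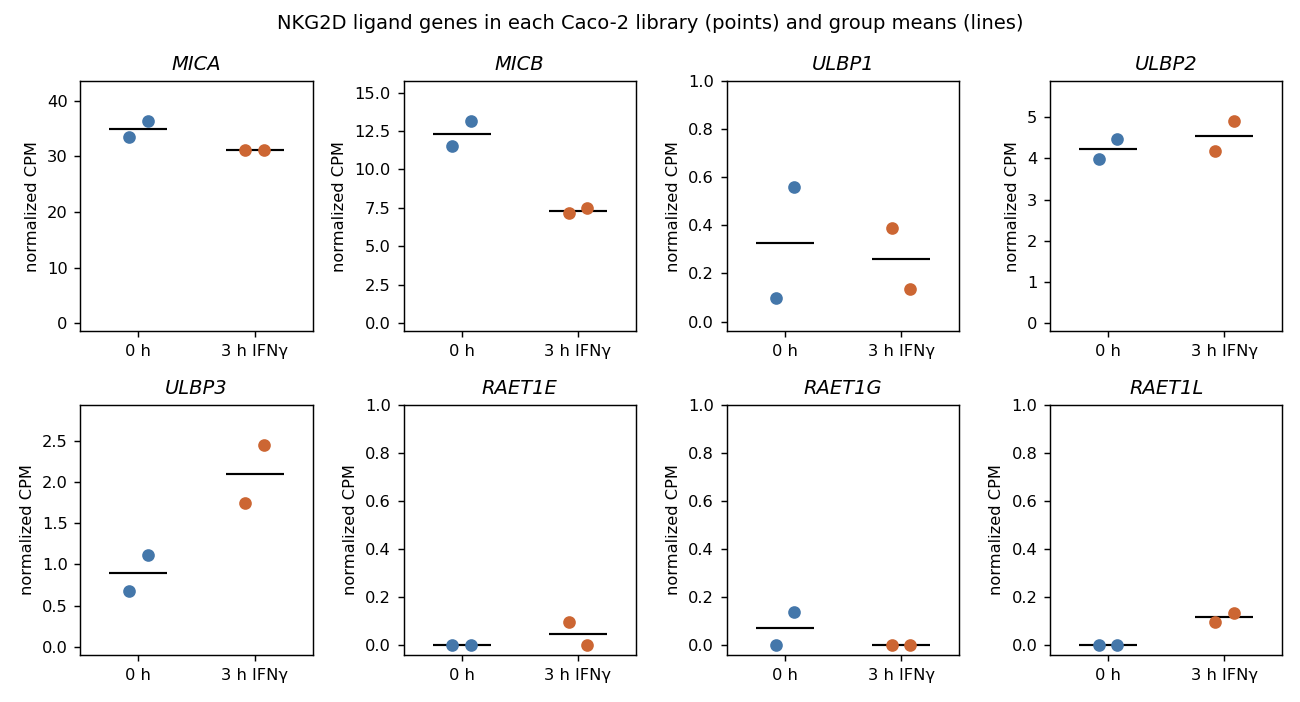
Normalized CPM of the 8 NKG2D ligand genes in each library (points) with the mean of each group (lines), each gene on its own linear axis. In each panel the unstimulated libraries at 0 h are on the left and the libraries after 3 h of IFNγ on the right. The groups are apart for MICA, MICB and ULBP3, overlap for ULBP1 and ULBP2, and sit at or near 0 for RAET1E, RAET1G and RAET1L. The share of all genes with groups apart was not computed, so this separation is a description only. ULBP3 passed the low count filter only through the IFNγ group.

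MICA and MICB lie near each other in the MHC region of chromosome 6, on the plus strand. In GENCODE 44 mapped to GRCh37, MICA (ENSG00000204520) spans positions 31367561 to 31383092 and MICB (ENSG00000204516) positions 31462658 to 31478901. Promoter sequences are shown because both genes are known for a heat shock element, the binding site of heat shock factors, and because the values of this close pair are compared with each other. Those of ULBP3 and ULBP2, the ULBP genes with enough counts to be tested, stand for the other branch of the family. Each is the 250 bases before the start in RefSeq on GRCh38.p14, another build than that of the gene positions, written 5′ to 3′ on the strand of the gene. Capitals mark, on either strand, the heat shock element core GAANNTTC, the GC box GGGCGG that is bound by factors such as SP1 and SP3, and the CCAAT box. The windows are chr6:31403345-31403594 (plus strand) for MICA, chr6:31497895-31498144 (plus strand) for MICB, chr6:150069122-150069371 (minus strand) for ULBP3 and chr6:149941764-149942013 (plus strand) for ULBP2.
MICA: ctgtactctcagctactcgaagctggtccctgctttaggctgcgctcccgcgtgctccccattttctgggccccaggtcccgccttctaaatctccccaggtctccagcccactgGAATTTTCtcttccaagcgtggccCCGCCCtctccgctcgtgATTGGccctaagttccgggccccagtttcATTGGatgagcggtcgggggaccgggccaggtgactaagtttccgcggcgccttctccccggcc
MICB: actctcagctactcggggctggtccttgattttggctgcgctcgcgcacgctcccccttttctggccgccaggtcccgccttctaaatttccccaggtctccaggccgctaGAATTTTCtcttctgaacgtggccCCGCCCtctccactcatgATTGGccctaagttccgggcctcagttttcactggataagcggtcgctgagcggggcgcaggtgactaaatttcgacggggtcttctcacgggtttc
ULBP3: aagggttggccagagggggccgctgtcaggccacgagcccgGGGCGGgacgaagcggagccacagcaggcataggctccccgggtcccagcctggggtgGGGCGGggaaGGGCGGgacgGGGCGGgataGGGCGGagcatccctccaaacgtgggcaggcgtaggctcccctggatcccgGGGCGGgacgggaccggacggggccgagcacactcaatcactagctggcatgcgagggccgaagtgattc
ULBP2: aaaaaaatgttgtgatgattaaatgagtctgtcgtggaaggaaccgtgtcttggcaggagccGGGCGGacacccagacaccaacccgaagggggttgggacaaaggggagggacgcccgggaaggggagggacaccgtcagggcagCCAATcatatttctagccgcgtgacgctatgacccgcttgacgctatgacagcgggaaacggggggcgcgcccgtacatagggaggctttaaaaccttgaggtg

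The MICA and MICB promoters were identical in 210 of 254 aligned columns (82.7%), whereas the other pairs among the 8 genes were between 41.2% and 54.2% identical. Both hold the same heat shock element core, GAATTTTC, with its first base at position -135 in MICA and -139 in MICB, counted from -1 at the base before the start. A GC box follows 24 bases after it and a CCAAT box 18 bases later in both genes, measured from first base to first base. MICA has a further CCAAT box nearer to the start that MICB lacks. The heat shock core was present in 5.78% of 35116 RefSeq promoters of this length and had 0 matches in the promoters of the other 6 ligand genes. The ULBP3 promoter held 6 GC boxes and 0 CCAAT boxes, and that of ULBP2 held 1 of each. GC boxes were present in 42.6% of all promoters and CCAAT boxes in 32%. The letters TTCNNNGAA of the gamma-activated site (in 6.57% of promoters) and those of the interferon-stimulated response element core (GAAA, any 2 bases, then GAAA, in 3.02%) had 0 matches in MICA, MICB and ULBP1 to ULBP3, and the former had 1 match, in 1 of the RAET1E promoters. A match describes letters in this window and not a site in use.

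MICA, the ligand with the highest level, had 33.6 and 36.3 CPM in the unstimulated libraries and 31.2 and 31.1 CPM in the IFNγ libraries. The groups did not overlap, and the gap between them was about as wide as the gap between the unstimulated duplicates. The mean was 34.9 ± 1.93 CPM (SD, n = 2) before and 31.2 ± 0.0526 CPM (SD, n = 2) after stimulation. The log2 fold change of MICA was -0.16 (SE 0.14), with an adjusted p of 0.441 in edgeR and a 95% interval from -0.48 to 0.16. MICA was thus not called, and a change of 1 on the log2 scale lies outside the interval. Over 13 alternative settings the estimate for MICA lay between -0.39 and -0.09, and it was called under 1 of them, with the GC and length trend removed and a replicate block (-0.39, adjusted p 0.0129 in edgeR).

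MICB, its close relative, had 11.6 and 13.1 CPM in the unstimulated libraries and 7.18 and 7.48 CPM in the IFNγ libraries. Both stimulated libraries lay well below both unstimulated ones, and the duplicates of each group were close together. The mean of MICB was 12.3 ± 1.12 CPM (SD, n = 2) before and 7.33 ± 0.216 CPM (SD, n = 2) after IFNγ, which is 59.4% of the unstimulated mean. Its log2 fold change was -0.75 (SE 0.20), the 95% interval ran from -1.22 to -0.27, and the adjusted p was 0.0401 in edgeR. In the ranking of all tested genes by log2 fold change, from the lowest up, MICB stood at percentile 12.4 and MICA at percentile 38.3. As these are bulk libraries, fewer cells that express MICB and less MICB RNA per cell cannot be told apart.

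The call on MICB was close to the threshold. It was lost in DESeq2 (-0.76, adjusted p 0.134) and in edgeR without each library in turn, with adjusted p 0.0797 without unstimulated replicate 1, 0.141 without unstimulated replicate 2, 0.0961 without IFNγ replicate 1 and 0.0526 without IFNγ replicate 2. The estimate was negative in all 13 alternatives, between -0.88 and -0.64, and the log2 ratios of the same-numbered libraries were -0.67 and -0.79.

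**Figure D2:**
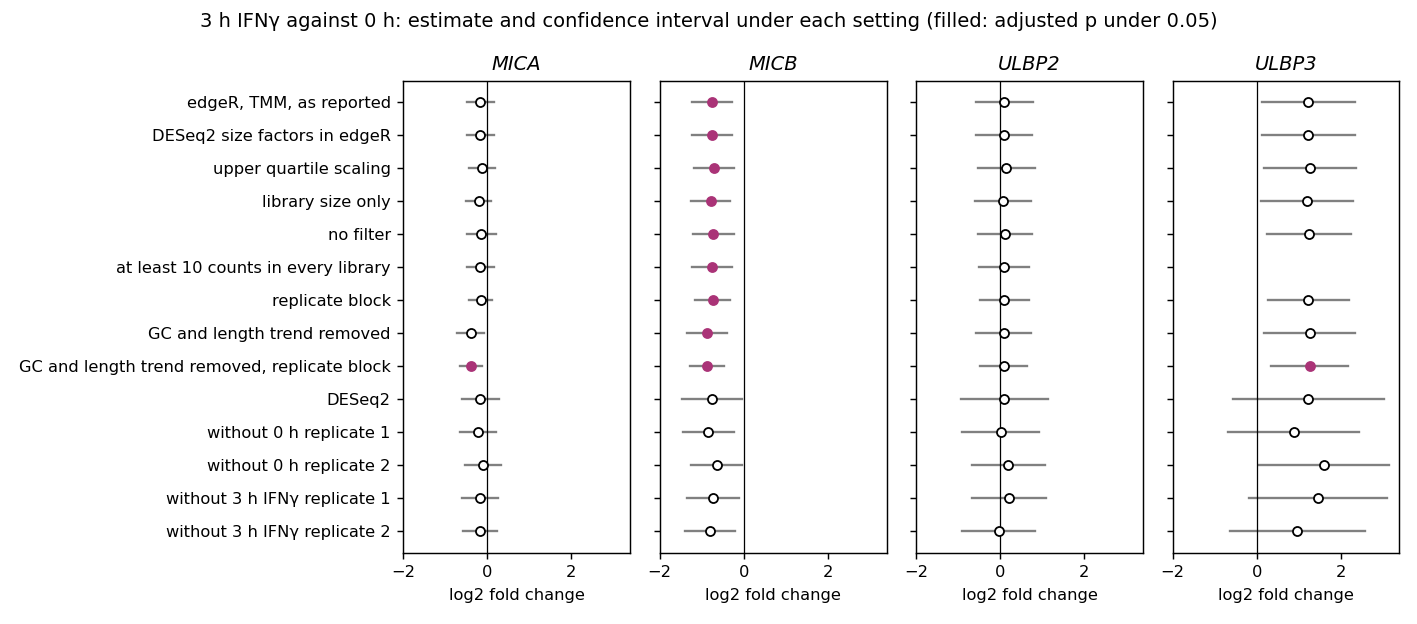
Log2 fold change of the 4 ligand genes that passed the low count filter, after 3 h of IFNγ against 0 h, under the reported fit (top) and each alternative. Points are estimates, lines are 95% intervals and filled points have an adjusted p under 0.05. MICB lies below 0 in each of 14 settings and is filled in 9, ULBP2 lies on both sides of 0, and ULBP3 lies above 0 in the 13 settings that tested it.

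The pair was also compared within libraries, where scaling plays no part. The log2 ratio of MICA to MICB counts was 1.52 and 1.45 in the unstimulated libraries and 2.09 and 2.02 in the IFNγ libraries. The ratio was higher after stimulation by 0.57 in both same-numbered pairs, and the groups did not overlap. With 2 libraries against 2 an exact permutation test cannot give a two-sided p below 0.333, which is the value obtained, and it stayed at 0.333 when adjusted over the 6 pairs of tested ligand genes. The difference (IFNγ minus unstimulated) was -0.26 for MICA to ULBP2, -1.22 for MICA to ULBP3, -0.82 for MICB to ULBP2, -1.79 for MICB to ULBP3 and -0.96 for ULBP2 to ULBP3. Each of the 6 had the same exact p. The 3 ratios with ULBP3 carry no weight of their own, since that gene passed the low count filter only through the IFNγ group.

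MICA and MICB share few exact stretches of 50 bases, a length set for this comparison. Of the 50-base stretches of their annotated transcripts, 1.86% in MICA and 2.86% in MICB also occur in transcripts of other genes. MICB shares exon positions with MICB-DT on the opposite strand, and MICA with a Y RNA gene on the opposite strand and with ENSG00000288587 on its own. The strand setting of the counting is not given in the sources used here, so reads from such partners cannot be told apart from those of the ligand genes.

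The ULBP genes lie in a cluster with the RAET1 genes on the long arm of chromosome 6. ULBP2 (ENSG00000131015, GRCh37 positions 150263150 to 150270371, plus strand) encodes a GPI-anchored ligand. It had 3.98 and 4.47 CPM in the unstimulated libraries and 4.17 and 4.90 CPM in the IFNγ libraries. The groups overlapped. The means were 4.22 ± 0.346 and 4.53 ± 0.514 CPM (SD, n = 2 each), and the log2 fold change of 0.10 (SE 0.29) had an adjusted p of 0.834 in edgeR. Its 95% interval ran from -0.57 to 0.77, which is wider than that of MICA, and without IFNγ replicate 2 the estimate was -0.03.

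ULBP3 (ENSG00000131019, GRCh37 positions 150382189 to 150390257, minus strand), another GPI-anchored ligand, had 7 and 8 counts without stimulation and 18 and 18 with IFNγ. On the normalized scale these were 0.679 and 1.12 CPM before and 1.75 and 2.45 CPM after stimulation. Both IFNγ libraries were above both unstimulated ones. The mean went from 0.898 ± 0.310 to 2.10 ± 0.497 CPM (SD, n = 2 each), a ratio of 2.33. The log2 fold change of ULBP3 was 1.23 (SE 0.47), with a 95% interval from 0.13 to 2.34, and its adjusted p of 0.108 in edgeR did not pass. The gene passed the low count filter only through the IFNγ group, so that a higher level there already follows from how it passed. Without unstimulated replicate 1 the estimate was 0.88 and without unstimulated replicate 2 it was 1.60, and a call was made only with the GC and length trend removed and a replicate block (1.26, adjusted p 0.0248 in edgeR), while DESeq2 gave no adjusted p.

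The remaining ligand genes were too low to be tested. ULBP1 (ENSG00000111981, positions 150285079 to 150294851), whose product is GPI-anchored as well, had 1 and 4 counts without stimulation and 4 and 1 with IFNγ, so each group summed to 5 counts (exact Poisson 95% interval 1.62 to 11.7, counting error only). RAET1L (ENSG00000155918, positions 150339470 to 150346668), which encodes ULBP6, had 0 and 0 counts before and 1 and 1 after IFNγ. These sums say little, since each lies within a few counts of 0. RAET1E (ENSG00000164520, positions 150204315 to 150219249), which encodes the transmembrane ligand ULBP4, had 1 count in the first IFNγ library and 0 in the other 3 libraries. RAET1G (ENSG00000203722, positions 150238014 to 150244257), which encodes ULBP5, had 1 count in the second unstimulated library and 0 elsewhere. No difference was detectable for these 4 genes at this depth. Counts in the cluster can also be split between copies, because 32.6% of the 50-base stretches of ULBP2 and 31.5% of those of RAET1L occur in other genes, most of them in each other, against 11.1% in ULBP3 and 8.13% in ULBP1. RAET1K, a neighboring relative, had 5 and 4 counts before and 4 and 1 after stimulation.

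To compare the ligand genes with each other, CPM was divided by the length of each gene's annotated exons in kilobases. On this scale MICA had a level of 8.72 and 9.43 CPM per kb in the unstimulated libraries and 8.11 and 8.09 in the IFNγ libraries. MICB had 4.13 and 4.69 CPM per kb before and 2.56 and 2.67 after stimulation. ULBP2 had 2.98 and 3.35 CPM per kb before and 3.12 and 3.67 after. The order of the levels was therefore MICA, MICB, ULBP2, ULBP3 in both unstimulated libraries, and MICA, ULBP2, MICB, ULBP3 in both IFNγ libraries. MICB and ULBP2 exchanged places without overlap in either group, also with the longest transcript as the length. ULBP2 had only 32 to 43 counts in a library. Shared sequence was not corrected for, and 32.6% of the 50-base stretches of ULBP2 occur in other genes, against 2.86% in MICB. The order of MICB and ULBP2 is therefore uncertain. MICA stood above both in each library, and ULBP3, at 0.218 to 0.787 CPM per kb, stood below both.

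MICA made up 52.1% to 55.7% of the summed ligand level per length in the 4 libraries. The share of MICB was 25.7% and 25.9% in the unstimulated libraries and 17.6% and 17.4% in the IFNγ libraries. The share of ULBP2 was 18.5% in both unstimulated libraries and 21.4% and 23.9% after IFNγ. On this scale MICA held most of the summed level in both groups, with MICB second before and ULBP2 second after stimulation. The order of MICB and ULBP2 is uncertain, because shared sequence was not corrected for. The share of ULBP3 was 1.36% and 1.98% before and 3.85% and 5.12% after. The summed level was 16.1 and 18.1 CPM per kb before and 14.6 and 15.4 CPM per kb after stimulation. Shares of a sum depend on each other, and no test was made on them. They also depend on the length chosen. With annotated exons the unstimulated means of MICA, MICB and ULBP2 were 9.08, 4.41 and 3.16 CPM per kb. With the longest transcript they were 15.5, 5.11 and 3.16 CPM per kb.

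**Figure D3:**
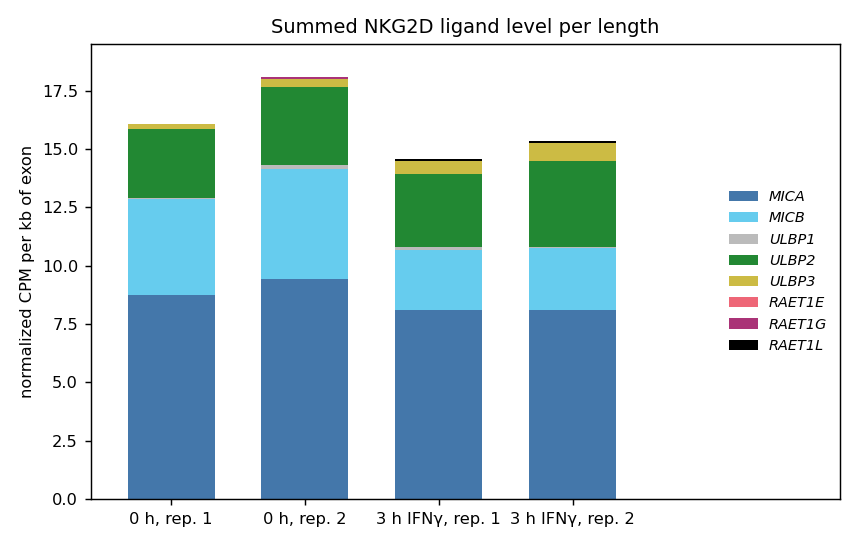
Summed level of the NKG2D ligand genes in each library, in normalized CPM per kilobase of exon, stacked by gene. MICA forms the lowest and largest segment of each bar, and the MICB segment measures 4.13 and 4.69 in the unstimulated libraries and 2.56 and 2.67 in the IFNγ libraries.

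The genes with levels most like those of the 2 ligand genes of highest mean CPM were sought among all tested genes outside the lists. Likeness was measured by the root mean square difference of log2 CPM over the 4 libraries. For MICA these were TIMM17A (0.0391), WARS2 (0.0479) and SLC25A38 (0.0689). For MICB they were TMEM182 (0.0471), SYDE2 (0.0805) and AK9 (0.0890). For TMEM182 the log2 fold change was -0.67 with an adjusted p of 0.0538 in edgeR, just outside the threshold that MICB passed. These genes were chosen by likeness over the same libraries, so a fold change near that of the ligand follows from the choice.

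The other genes of the pathway were followed in 10 lists that cover the receptor, the release and anchoring of the ligands, their known regulators, the stress pathways that induce them, other ligands of NK cells and the chromosomal neighbors. Over these lists 86 genes had a row, 70 were tested and 17 were called, to be read against the 20.0% of all tested genes. The counts by direction in each list are to be read against 9.02% higher and 11.0% lower of all tested genes. Of the receptor complex, HCST, which encodes the adaptor DAP10, had 1 count in 1 library and 0 in the others. No row was found by symbol for KLRK1, which encodes NKG2D itself, or for TYROBP, so neither was analysed.

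Of 7 genes for the shedding and release of ligands from the cell surface, 5 were tested, and 1 was called, lower, with a list median of -0.32 (log2). The median was 0.16 with the GC and length trend removed, -0.0003 without a filter on low counts and -0.20 without unstimulated replicate 1. ADAM10, a membrane protease that can cleave MIC proteins, went from 168 and 186 CPM to 127 and 123 CPM. The groups did not overlap, and its log2 fold change was -0.50 (SE 0.11, adjusted p 0.0228 in edgeR). The direction turned with the GC and length trend removed (0.18, adjusted p 0.457), and the call was lost without unstimulated replicate 2 (adjusted p 0.104), which left 0 of the list called in edgeR where leaving out IFNγ replicate 2 gave 2. PDIA6, a disulfide isomerase that assists the shedding of MICA and the most abundant gene of this list, had an estimate of 0.08 (adjusted p 0.693). All 5 genes of the transamidase that attaches GPI anchors were tested, and edgeR and DESeq2 called 0 of them, with 2 at an unadjusted p under 0.05 in edgeR and a median of 0.14 (log2). PIGT, the subunit with the highest mean CPM, had an estimate of 0.29 (adjusted p 0.125 in edgeR). Per kb of exon GPAA1, PIGU and PIGS stood above it. Without IFNγ replicate 1 there was 1 call among these 5 genes, and their median was 0.072 without unstimulated replicate 1, 0.26 without unstimulated replicate 2 and 0.028 with the GC and length trend removed.

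Of 11 regulators of ligand transcription all were tested, and 3 rose and 1 fell, with a median log2 fold change of 0.23. MYC, a transcription factor that drives growth, had 50.1 and 65.8 CPM in the unstimulated libraries and 386 and 458 CPM in the IFNγ libraries. Its log2 fold change of 2.87 (SE 0.17, adjusted p 0.000287 in edgeR) was the highest of the pathway genes and was called in all 13 alternatives. RELA, a subunit of NFκB, rose from 60.7 and 56.4 CPM to 102 and 100 CPM (0.78, adjusted p 0.00523). RBM4, an RNA-binding protein linked to ULBP1 expression, rose from 9.71 and 7.82 to 16.4 and 16.9 CPM (0.91, adjusted p 0.0170). SP3, which binds GC boxes, fell from 203 and 228 to 119 and 112 CPM (-0.90, adjusted p 0.00362), and its call was lost with the GC and length trend removed (-0.23, adjusted p 0.323). ATF4, an activator of ULBP1 and the most abundant of the list, had an estimate of 0.39 (adjusted p 0.0789).

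Stress pathways that induce NKG2D ligands were described by their own genes. Of 8 DNA damage checkpoint genes, 1 rose and 2 fell, with a median log2 fold change of -0.67 (-0.37 with the GC and length trend removed). H2AX, the histone variant that is modified at DNA breaks, rose from 37.7 and 41.6 CPM to 78.8 and 92.6 CPM (1.11, adjusted p 0.00329). TOPBP1 and RAD17, which help to activate the kinase ATR, both fell by 1.03 on the log2 scale (adjusted p 0.00350 and 0.00631). These 3 calls held in all 13 alternatives, and leaving out unstimulated replicate 2, IFNγ replicate 1 or IFNγ replicate 2 gave 5 calls in the list.

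Of 12 heat shock genes 11 were tested, and 2 were called, both lower, with a median of -0.25 (log2). The median turned to 0.11 with the GC and length trend removed, 0.035 without IFNγ replicate 1 and 0.013 without unstimulated replicate 2. HSPH1, a large chaperone, fell from 178 and 235 CPM to 103 and 100 CPM (-1.02, adjusted p 0.00516). HSPA1B, an inducible chaperone whose reads are hard to separate from those of the nearly identical HSPA1A, fell by 0.64 on the log2 scale (adjusted p 0.0386), a call that was lost without unstimulated replicate 2 (adjusted p 0.121) or IFNγ replicate 1 (adjusted p 0.104). HSPA8, the constitutive chaperone and the most abundant of the list, had an estimate of 0.08 (adjusted p 0.703). Leaving out IFNγ replicate 2 gave 5 calls in the list and leaving out unstimulated replicate 2 gave 1.

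**Figure D4:**
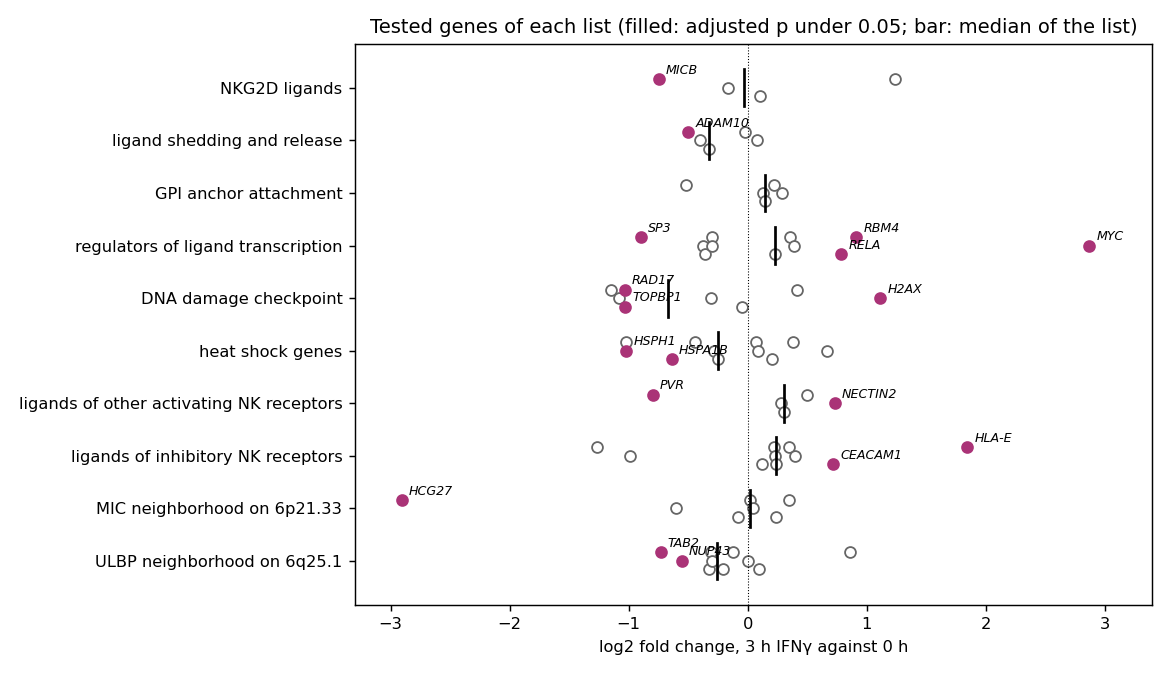
Log2 fold change after 3 h of IFNγ for each tested gene of the NKG2D ligands and of 9 pathway lists. Filled points with names have an adjusted p under 0.05, and black bars give the median of each list. MYC at 2.87 and HLA-E at 1.84 lie farthest to the right, HCG27 at -2.91, which passed the filter only through the unstimulated group, farthest to the left, and the list medians lie between -0.67 and 0.30.

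Ligands of other NK receptors were set beside those of NKG2D. Of the ligands of activating receptors 5 of 8 were tested, and 1 rose and 1 fell, with a median of 0.30 (log2). PVR and NECTIN2, both ligands of the receptor DNAM-1, moved in opposite directions. PVR fell from 205 and 192 CPM to 111 and 117 CPM, with a log2 fold change of -0.80 (SE 0.11, adjusted p 0.00432 in edgeR). NECTIN2 rose from 95.0 and 104 CPM to 156 and 175 CPM, with a log2 fold change of 0.73 (SE 0.12, adjusted p 0.00720 in edgeR). Both calls held in all 13 alternatives. BAG6, a ligand of NKp30 and the most abundant of the list, had an estimate of 0.30 (adjusted p 0.0844).

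Of 10 genes for ligands of inhibitory receptors all were tested, and 2 were called, both higher, with a median log2 fold change of 0.23 (0.36 without unstimulated replicate 2). HLA-E, the ligand of the inhibitory receptor NKG2A, rose from 141 and 154 CPM to 541 and 519 CPM, with a log2 fold change of 1.84 (SE 0.11, adjusted p 0.000331 in edgeR). CEACAM1, an adhesion molecule that can inhibit lymphocytes, rose from 35.2 and 44.1 to 70.2 and 59.7 CPM (0.72, adjusted p 0.0208). Its call was lost without unstimulated replicate 1 (adjusted p 0.0948) or IFNγ replicate 1 (adjusted p 0.0508), which left HLA-E as the 1 call of the list. CDH1, the E-cadherin gene and the most abundant of this list, had an estimate of 0.23 (adjusted p 0.172). Reads of HLA class I genes may be split among close relatives.

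The neighbors of MICA and MICB include classical MHC class I genes. HLA-B, at -45.9 kb from MICA, had 91.7 and 96.1 CPM in the unstimulated libraries and 116 and 122 CPM in the IFNγ libraries (0.34, adjusted p 0.0710, and 0.0460 with upper quartile scaling). HLA-C, farther out on the same side, had an estimate of 0.24 (adjusted p 0.184), which turned to -0.02 with the GC and length trend removed. HCP5, which begins between MICA and MICB, was not tested and had 11 and 15 counts before and 7 and 6 after stimulation. Of the 15 neighbors with a row 7 were tested, with a median of 0.02 (log2) that turned to -0.22 with the GC and length trend removed, -0.12 without IFNγ replicate 2 and -0.11 without unstimulated replicate 2. The 1 neighbor called was HCG27, a noncoding gene at -202 kb from MICA, with 39 and 16 counts before and 4 and 3 after stimulation (-2.91, adjusted p 0.00936). It passed the low count filter only through the unstimulated group, so that a lower level after IFNγ already follows from how it passed. DESeq2 gave it no adjusted p. Without unstimulated replicate 1 its adjusted p was 0.0892 and 0 neighbors were called in edgeR, as in DESeq2, with 2 at an unadjusted p under 0.05 in all 4 libraries. Leaving out unstimulated replicate 2 or IFNγ replicate 1 gave 2 calls. PRRC2A, the neighbor with the highest mean CPM, had an estimate of -0.08 (adjusted p 0.647 in edgeR). Per kb of exon HLA-C stood above it.

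Around the ULBP cluster 10 of 11 neighbors were tested, and 2 were called, both lower, with a median of -0.26 (log2). With the GC and length trend removed the median was -0.042 and neither was called, and without IFNγ replicate 1 it was -0.16. TAB2, an adaptor of inflammatory kinase signaling, had the highest mean CPM of these neighbors, while PCMT1 was higher per kb of exon. TAB2 fell from 140 and 143 CPM to 81.3 and 89.6 CPM (-0.73, adjusted p 0.00619 in edgeR, and 0.0776 with the GC and length trend removed). NUP43, a nuclear pore subunit, fell by 0.56 on the log2 scale (adjusted p 0.0194). Its call was lost without unstimulated replicate 1 (0.0588), unstimulated replicate 2 (0.0623) or IFNγ replicate 1 (0.0593), each of which left 1 neighbor called, and with the GC and length trend removed (0.129). ULBP3 had the highest estimate of the tested genes in this stretch, and PPP1R14C followed at 0.86 (adjusted p 0.118 in edgeR). Neither passed the test, and PPP1R14C is a neighbor named after its value was seen. The rank of ULBP3 carries no weight of its own, since that gene passed the low count filter only through the IFNγ group.

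**Figure D5:**
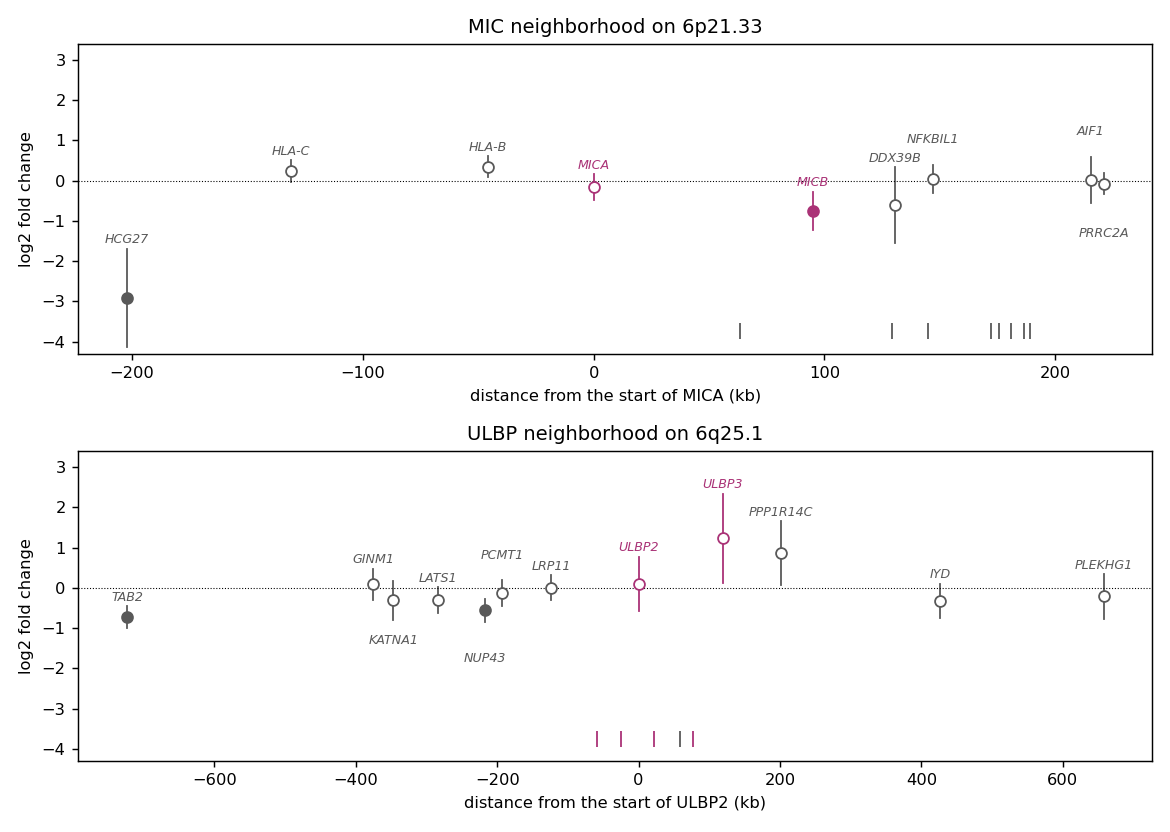
Log2 fold change after 3 h of IFNγ of the tested genes around MICA and MICB (top) and around the ULBP genes (bottom), by the distance of each gene from MICA or ULBP2 in kilobases, measured between lowest coordinates. Lines are 95% intervals, filled points have an adjusted p under 0.05, ligand genes are in color and ticks at the bottom mark genes that were not tested. MICB and HCG27 are filled in the upper panel, TAB2 and NUP43 in the lower.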

How the data were processed

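RNA-seq of Caco-2 cells was analyzed for 4 libraries, 2 unstimulated at 0 h and 2 after 3 h of IFNγ at 60 ng/ml, grouped by their labels. RNA had been isolated with the mirVana kit and prepared with the TruSeq RNA kit. The authors deposited raw read counts per Ensembl gene, without normalization and with replicates kept apart. The submitters' processing notes name HISAT 0.5.1 and HTSeq 0.6.1p1, and the genome build, annotation and strand setting are not given in the sources used here. Counts of overlapping or near-identical genes are therefore uncertain.

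The table listed 37515 genes, 8158 of them at 0 in every library, and a symbol was found for 96.5%. Differential expression was tested with edgeR 4.0.16 in R 4.3.3 (quasi-likelihood test, TMM scaling, default filter on low counts, no block) over 14820 genes. A gene was called at an adjusted p under 0.05 (Benjamini-Hochberg). Standard errors were derived from the F statistic. The fits were tested on simulated data. Duplicates differed by more than counting noise (chi-square per degree of freedom 7.70 and 8.83), so none was counted as a repeat. Log2 ratios within libraries used a prior count of 2. Gene positions, lengths and shared 50-base stretches came from GENCODE 44 on GRCh37, and promoters from RefSeq on GRCh38.p14.

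The alternatives were 3 other library scalings, DESeq2 1.42.0, 2 other filters, the replicate block, removal of a GC and length trend by loess with and without the block, and each library left out in turn. The text names all ligand genes and the genes called in each list (at most 4). In each list it also names the gene with the highest mean CPM, not corrected for length. Further named are 4 neighbors (HLA-B, HLA-C, HCP5 and RAET1K) and the 3 genes most like each of the 2 ligands with the highest mean CPM. The ligand genes and lists were chosen with earlier results of these data known.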

Additional observations from a re-analysis of the deposited data

How the results depend on the processing

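MICA, MICB and ULBP3 kept their direction in each of the alternatives run. The exceptions to the threshold were MICB in DESeq2 (-0.76) and without each library in turn (-0.84 to -0.64), and MICA (-0.39) and ULBP3 (1.26) with the GC and length trend removed and a replicate block. Without 1 library ULBP3 lay between 0.88 and 1.60, and ULBP2 between -0.033 and 0.21, with the value below 0 without IFNγ replicate 2. ULBP3 could not be tested with at least 10 counts in every library. Among the other genes named, the direction turned for ADAM10 (0.18 with the GC and length trend removed, with and without the block), HLA-C (-0.023 without and -0.016 with the block), PDIA6 and HSPA8 when 1 library was left out (-0.023 to 0.19 and -0.082 to 0.28, below 0 without unstimulated replicate 1 and, for PDIA6, also without IFNγ replicate 2). The cause was not tested.

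The replicate numbers are shared by the groups, but nothing in the labels says that they mark a common culture or day. Deviations of same-numbered libraries correlated across genes (r = 0.415). With 2 libraries per group the 2 pairs mirror each other, so this is a hint from 1 comparison only. Replicate 1 was also the deeper library in the unstimulated group (9990952 against 7171455 counts) and in the IFNγ group (10365346 against 7529914 counts). The part of depth in this correlation was not tested. With the replicate block 5488 genes were called (2596 higher and 2892 lower) in place of 2963 (1337 and 1626), and with the block and the GC and length trend removed 5465 (2874 and 2591). Removing the trend alone called 1314 genes higher and 1001 lower. With an absolute log2 fold change above 1 as well, 1079 genes were called (427 and 652). Without 1 library 1766 to 3023 genes were called (710 to 1145 higher and 1056 to 1878 lower), the fewest without unstimulated replicate 1. Of the pathway genes 17 were called, 26 without a filter, 37 with the block, 32 with the block and the trend removed, 7 with the fold criterion and 14 to 23 without 1 library. The block put MICB at -0.74 (adjusted p 0.0157 in edgeR) and changed no call on a ligand gene, while it called ATF4 (adjusted p 0.0082), PIGT (0.0202), BAG6 (0.0071), CDH1 (0.0099), HLA-B (0.0141) and HLA-C (0.0284), which the fit without it did not. With the longest transcript as length the unstimulated level of MICA was 15.5 CPM per kb in place of 9.08.

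Precision was limited by 2 libraries per group and by low counts of the ULBP and RAET1 genes. Where a library is left out, the lone library is assumed to vary like the other group. In edgeR gene variances were drawn to a common trend, with 5.34 prior degrees of freedom in the reported fit. They were set to the trend in full with no filter and without IFNγ replicate 2. The counts of calls in those fits are therefore not directly comparable with the reported ones.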
